A study of Mus musculus with 12 samples.

Results

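The 2-oxoglutarate dioxygenases are iron enzymes that use oxygen and the metabolite 2-oxoglutarate to hydroxylate or demethylate DNA, RNA, histones, other proteins and small molecules. A list of 40 genes of this family was followed in mouse hearts with mutant IDH2, and 38 of them were measured among 19937 genes. The rule takes genes by name and sets no threshold on their values, but the list was chosen with earlier results of these data known. Alkbh1, a nucleic acid demethylase, was not read out because its probe set carries several gene symbols. Tmlhe, which starts carnitine synthesis, is not listed in the platform's probe table used here. Each measured gene is represented by its brightest probe set.

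Mutant IDH2 converts 2-oxoglutarate to D-2-hydroxyglutarate, which resembles 2-oxoglutarate and is known to compete with it in several of these enzymes. The TET proteins oxidise 5-methylcytosine in DNA, the JmjC demethylases remove methyl groups from histones, and the prolyl hydroxylases of the Egln family mark the hypoxia-inducible factor (HIF) for destruction. These arrays measured RNA, so the values concern how much of each enzyme's transcript was present and not how active the enzyme was.

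Heart RNA was hybridised to 12 arrays, 4 from control mice, 4 from mice with mutant IDH2 R140Q and 4 from mice with mutant IDH2 R172K. All mice were of a mixed background made up of Balb/c, C57BL/6 and 129/sv. Mutant mice had been given 2 mg of 4-hydroxytamoxifen on 3 days at the age of 5 weeks, and what was given to control mice is not stated in the labels. In the comparisons with control, drug and mutation cannot be told apart. Nor do the labels give the promoter or Cre line behind the mutant alleles, the sex of the mice or their age at dissection. Whether each array came from a different animal is not stated, and p-values accordingly reflect only how much these arrays varied.

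Values below are log2 intensities in the order of replicates 1 to 4. Differences are group means on the log2 scale with limma's moderated standard error (SE), from 4 arrays a group. A gene was called, and is said to have risen or fallen, at a Benjamini-Hochberg adjusted p under 0.05 over all 19937 genes. Both comparisons with control share the same control arrays.

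Array medians lay between 74.8 and 78.0 intensity units, a likeness that the authors' RMA step produces by equalising arrays. Cardiomyocyte markers averaged 13.04 to 13.12 in the controls, 12.93 to 13.01 with R140Q and 12.61 to 12.96 with R172K, and 7 of the 14 fell in R172K hearts. The mean of 13 fibroblast and matrix markers was 8.20 to 8.59 in the controls, 8.65 to 9.42 with R140Q and 8.91 to 10.74 with R172K, and 9 of them rose in R172K hearts. R172K replicate 3 had the lowest mean of this list in its group and R172K replicate 4 the highest. The genes of the list did not move alike. Control and R172K means were 6.17 and 9.53 for Lox and 6.22 and 9.79 for Timp1. They were 12.77 and 12.87 for Dcn, 9.02 and 9.21 for Lum, 6.92 and 7.03 for Tcf21 and 10.73 and 10.38 for Dpt. In R140Q hearts the means of Pdgfra, Dcn, Tcf21 and Dpt lay below control and those of the other genes above. The list mean is thus not a count of fibroblasts. In R140Q hearts limma called no gene of either list, with 5 of 14 cardiomyocyte and 4 of 13 fibroblast genes at an unadjusted p under 0.05. The atrial light chain Myl7 was 12.49 in control replicate 3 and 11.36 in R172K replicate 3, between 5.23 and 6.04 in R140Q hearts, and between 6.18 and 9.21 on the remaining arrays. The mean of all 9 atrial markers was 7.42 to 9.61 in the controls, 6.78 to 7.71 with R140Q and 8.26 to 9.20 with R172K. In R140Q hearts limma called none of the 9, with 4 at an unadjusted p under 0.05, and in R172K hearts 1 rose. Not all followed Myl7, as Pam averaged 11.62 in the controls and 12.07 with R140Q. Nppa read 12.74, 7.85, 13.20 and 12.81 with R140Q, beside 11.08 to 13.48 in the controls. Of 10 endothelial markers 3 rose in R140Q and 2 in R172K hearts, and of 13 macrophage markers 3 rose in R172K hearts. For comparison with these marker counts, 1.08% of all genes rose in R140Q hearts, and 6.23% rose and 6.78% fell in R172K hearts. Among genes brighter than the median, tested alone, 5.69% were called in R140Q and 27.8% in R172K hearts. Lung markers averaged 7.96 on R140Q replicate 4 and between 5.68 and 6.11 on the other arrays. Idh2 itself was bright, with means of 12.74 in the controls, 12.45 with R140Q and 12.38 with R172K, and was not called in any comparison of the groups. All mutant hearts (11.88 to 12.57) nevertheless lay below all controls (12.62 to 12.85). Such a pattern was shown by 7.04% of all genes in R140Q and 8.72% in R172K hearts. Whether its probe set reads the mutant transcript was not tested. In bulk heart RNA, fewer cells of a type and less RNA per cell cannot be told apart.

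In R172K hearts 4 of 38 dioxygenase genes rose and 7 fell, while 6.23% of all genes rose and 6.78% fell. Alkbh3, a DNA and RNA demethylase (0.63), Alkbh6 (0.47), and the histone demethylases Kdm3a (0.54) and Kdm5b (0.25) were higher. The largest decreases were in the endoplasmic reticulum protein gene Jmjd8 (-0.73), the oxygen sensor Egln1 (-0.72) and the DNA dioxygenase Tet1 (-0.68). Jmjd4 (-0.37), Hif1an (-0.31), Alkbh5 (-0.27) and Asph (-0.24) fell by less. In R140Q hearts Alkbh3 (0.49) and Alkbh6 (0.52) rose and no member fell, while 1.08% of all genes rose and 1.12% fell. None of the 38 genes differed from control by as much as 1 log2 unit in either mutant.

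These counts were read against all genes of the same test. Because the members were chosen with earlier results known, the shares describe this list and are no test of it. The 2 of 38 called in R140Q hearts are 5.26%, beside 2.20% of all genes. In R172K hearts the 11 called are 28.9%, beside 13.0% of all genes. Most of these dioxygenase genes are well expressed, however, and 35 of the 38 are brighter than the median gene. With genes above the median tested alone, 13 of 35 or 37.1% were called in R172K hearts beside 27.8% of genes, and 3 of 35 or 8.57% in R140Q hearts beside 5.69%. Among bright genes the share of members called was thus closer, in ratio, to the share of all genes called. The median difference of the 38 was -0.03 in R140Q and -0.04 in R172K hearts, and over all genes it was 0.003 and -0.0033.

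Looser counts were set beside all genes in the same way. At an unadjusted p under 0.05 limma gave 7 of 38 members in R140Q hearts, beside 17.0% of all genes, and 19 of 38 in R172K hearts, beside 26.6%. All 4 R140Q hearts lay above all controls in 5 members and below them in 4, patterns shown by 7.79% and 7.04% of all genes. All 4 R172K hearts lay above all controls in 5 members and below them in 10, patterns shown by 7.47% and 8.72% of all genes.

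**Figure D1:**
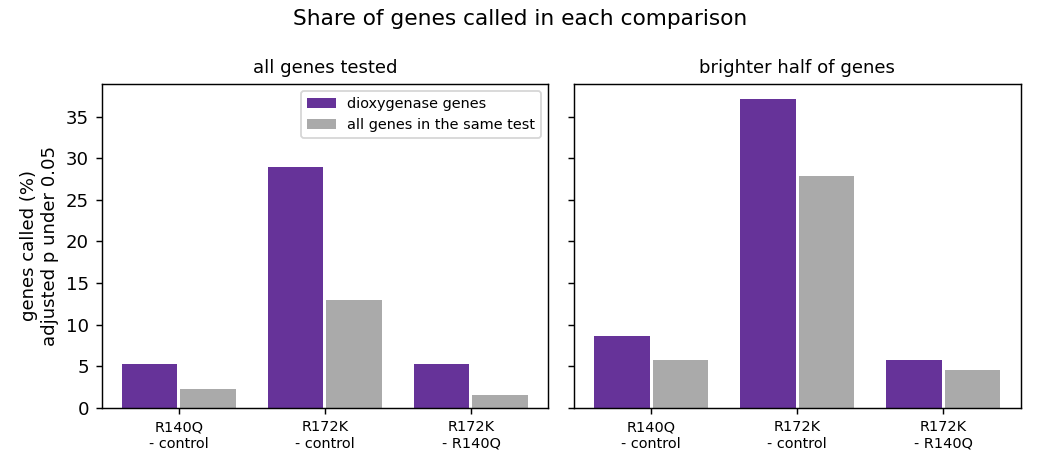
Share of genes called at an adjusted p under 0.05, in percent, for the measured dioxygenase genes (purple) and for all genes in the same test (grey), by comparison. Left, all 19937 genes and 38 members; right, genes brighter than the median with 35 members, where R172K against control gave 37.1% of members and 27.8% of genes.

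Single arrays moved the number of members called. In R140Q hearts it was 0 without control 1, R140Q 1 or R140Q 3 (6, 5 and 4 members at an unadjusted limma p under 0.05) and 1 without control 3 or R140Q 4. The share of all genes called in these 5 fits was 0.502% to 1.30%. In R172K hearts it was 5 without R172K 1 and 7 without control 2 or R172K 2, where 6.66%, 7.42% and 8.75% of all genes were called. In the other fits it was between 8 and 14, the highest without R172K 3, where 20.9% of all genes were called. The number of members thus moved with that of all genes. With only the control and R172K arrays fitted, 8 members were called, beside 8.97% of all genes, and 7 of the original 11 were among them. Kdm3a, Kdm5b, Jmjd8 and Asph lost their calls there (adjusted p 0.0512 to 0.0652). Without control 3, R140Q 4 and R172K 3, which stood highest in the atrial or the lung list, 1 member was called in R140Q hearts and 11 in R172K hearts, beside 1.78% and 17.3% of all genes, with 9 of the latter among the original 11.

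**Figure D2:**
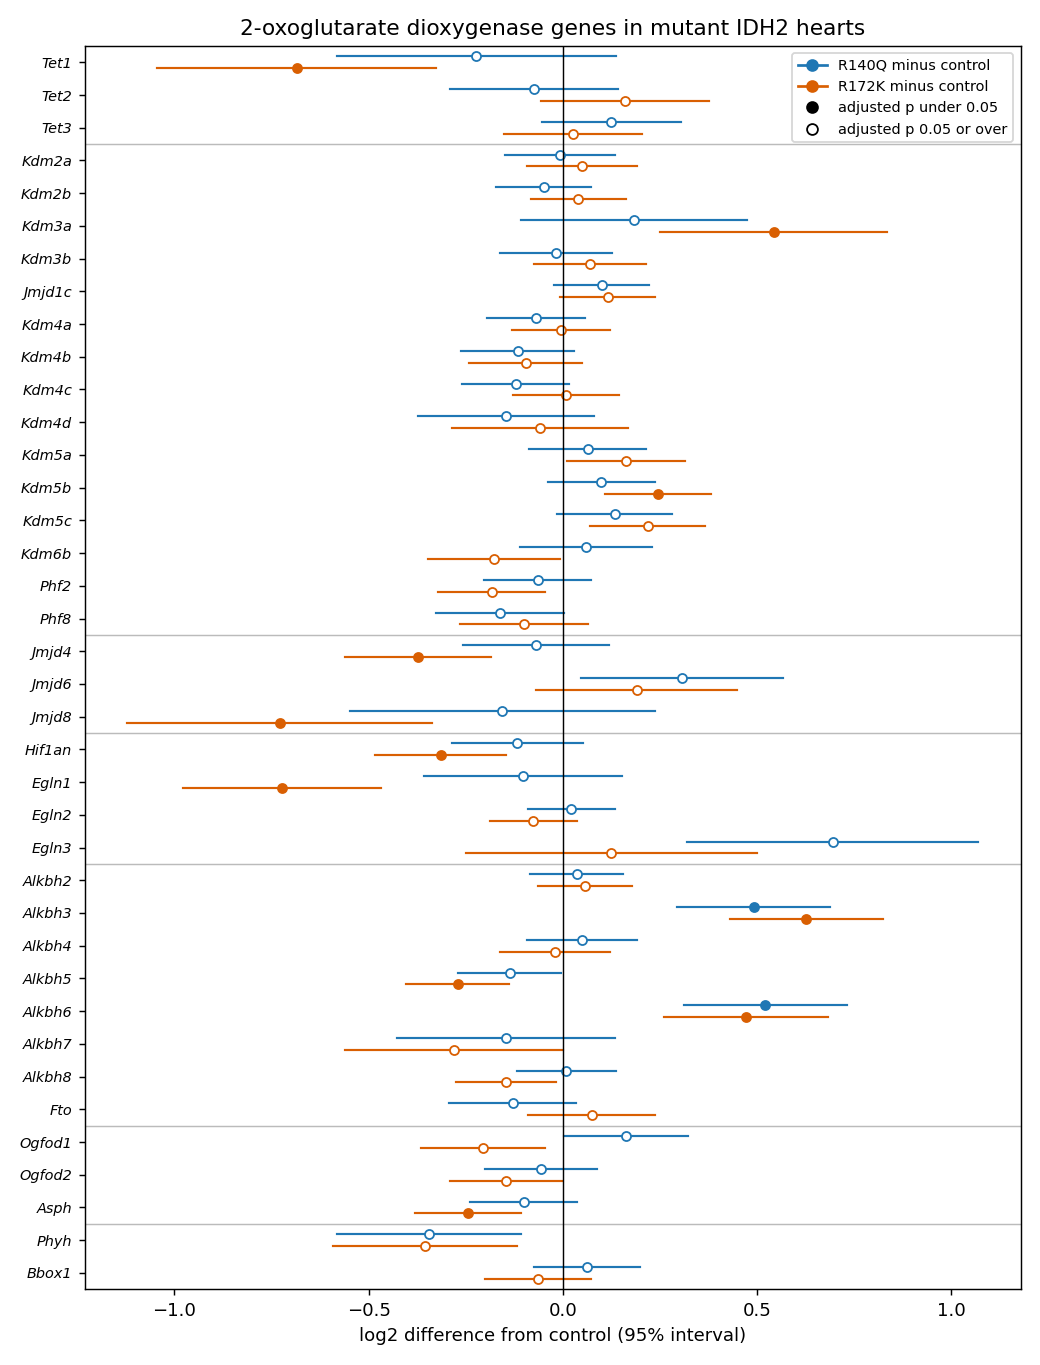
Log2 difference from control of each measured dioxygenase gene in R140Q (blue) and R172K (orange) hearts, ordered by role, with grey lines between roles. Points are differences of means of 4 arrays, bars are 95% intervals, and filled points were called at an adjusted p under 0.05. Alkbh3 and Alkbh6 are filled in both mutants, whereas Egln1, Jmjd8 and Tet1 are filled in R172K hearts and lie between -0.22 and -0.10 in R140Q hearts.

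Among the HIF hydroxylases, Egln1 and Hif1an fell in R172K hearts and none of the 4 genes was called in R140Q hearts by limma, with 1 at an unadjusted p under 0.05. Egln1 encodes PHD2, the prolyl hydroxylase that sets HIF levels in normal oxygen. Its log2 intensity was 11.07, 11.25, 11.20 and 11.24 in the 4 controls, 11.00, 11.20, 10.85 and 11.31 with R140Q and 10.33, 10.40, 10.80 and 10.35 with R172K. All 4 R172K hearts lay below every control and every R140Q heart. The decrease of 0.72 ± 0.12 (SE) against control corresponds to 1.65-fold (adjusted p = 0.00343) and was called whichever array was left out, with adjusted p up to 0.0146. Against R140Q hearts Egln1 was also lower, with a difference of -0.62 ± 0.12 (adjusted p = 0.0339).

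The call of that difference between the mutants was not stable. Control arrays enter it only through the shared estimate of spread, and without control 2, 3 or 4 the difference itself stayed at -0.62. The call was lost on leaving out control 2, 3 or 4, or R140Q 1, 2 or 4, or R172K 1 or 2 (adjusted p of 0.052 to 0.118). Over all single arrays left out, the difference stayed between -0.73 and -0.55. R140Q hearts themselves differed from control by -0.10 in Egln1, with a 95% interval from -0.36 to 0.15.

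Egln3 encodes PHD3, a prolyl hydroxylase whose gene is itself induced by HIF. Its values were 10.11, 10.71, 9.99 and 10.40 in the 4 controls, 11.25, 10.74, 10.98 and 11.02 with R140Q and 10.34, 10.08, 10.53 and 10.76 with R172K. Every R140Q heart lay above every control heart, and 3 of the R140Q hearts lay above every R172K heart. The R140Q difference of 0.69 ± 0.17 (1.62-fold) had an adjusted p of 0.0571 and was not called, but fell under the threshold without control 2 (0.83, adjusted p = 0.0466), R172K 3 (adjusted p = 0.0464) or R172K 4 (adjusted p = 0.031). In R172K hearts the difference was 0.12, with an interval from -0.25 to 0.50. The difference between the mutants, -0.57 ± 0.17, was not called (adjusted p = 0.117).

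Hif1an, also known as FIH, hydroxylates an asparagine of HIF and so limits its activity as a transcription factor. Across the arrays it read 9.12, 9.21, 9.08 and 8.94 in the 4 controls, 9.08, 9.00, 8.87 and 8.94 with R140Q and 8.77, 8.80, 8.90 and 8.63 with R172K. R172K hearts all lay below the lowest control, whereas R140Q hearts overlapped both groups. Hif1an fell by 0.31 ± 0.08 in R172K hearts (adjusted p = 0.0205), a call that ended without control 1, control 2 or R172K 1 (adjusted p from 0.0552 to 0.0666). Egln2, which encodes PHD1, differed by 0.02 in R140Q and -0.08 in R172K hearts, with intervals from -0.09 to 0.13 and from -0.19 to 0.04.

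**Figure D3:**
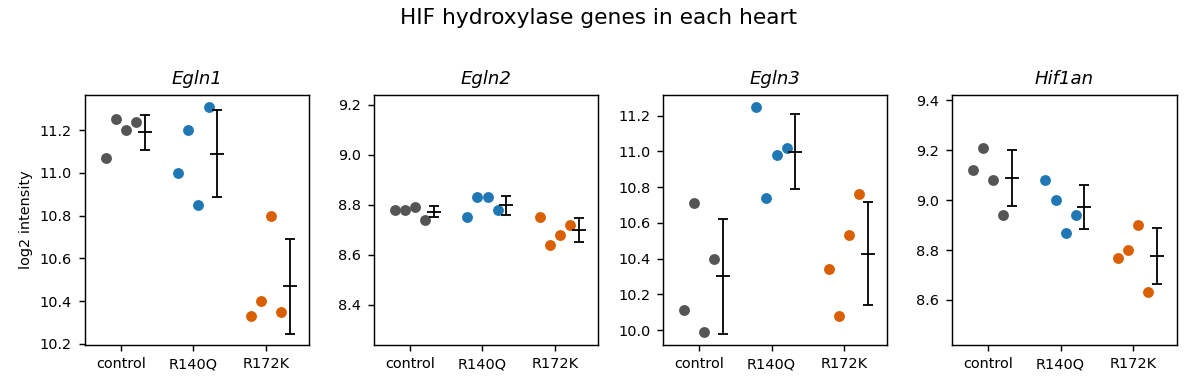
Log2 intensity of the HIF hydroxylase genes in each heart, by group; each point is 1 array, in the order of replicates, and the bar beside each group is the mean ± SD of 4. Vertical scales differ between panels. Egln1 in R172K hearts lies between 10.33 and 10.80, below all other hearts, while Egln3 is highest in R140Q hearts, between 10.74 and 11.25.

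Egln1, Egln3 and the histone demethylase gene Kdm3a are known HIF targets, and their promoters are shown to let their HIF-type motifs be seen beside these values. HIF binds the core ACGTG or GCGTG. The sequences are the 250 bases before the annotated start in RefSeq, build GRCm38.p6, 5′ to 3′ on the gene's strand, with the core motif in capitals, read as CACGT or CACGC where it lies on the opposite strand.
Egln1 (chr8:124949255-124949504, minus strand): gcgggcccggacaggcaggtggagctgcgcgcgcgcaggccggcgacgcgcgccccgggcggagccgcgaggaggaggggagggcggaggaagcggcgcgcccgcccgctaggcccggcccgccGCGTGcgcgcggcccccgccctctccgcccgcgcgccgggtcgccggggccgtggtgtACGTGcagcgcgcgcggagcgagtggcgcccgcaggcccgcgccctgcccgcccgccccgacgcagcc
Egln3 (chr12:54203875-54204124, minus strand): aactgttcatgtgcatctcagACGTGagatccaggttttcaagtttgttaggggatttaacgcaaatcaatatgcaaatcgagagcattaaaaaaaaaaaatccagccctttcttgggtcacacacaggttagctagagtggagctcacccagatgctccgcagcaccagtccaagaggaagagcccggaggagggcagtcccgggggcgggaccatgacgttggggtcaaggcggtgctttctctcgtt
Kdm3a (chr6:71632918-71633167, minus strand): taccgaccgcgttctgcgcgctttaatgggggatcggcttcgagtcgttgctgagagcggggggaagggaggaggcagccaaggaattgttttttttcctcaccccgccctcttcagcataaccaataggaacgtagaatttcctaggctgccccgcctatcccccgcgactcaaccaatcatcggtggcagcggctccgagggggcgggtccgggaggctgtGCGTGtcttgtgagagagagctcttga
The Egln1 window holds the core at 126 and 68 bases before the start, the Egln3 window at 229 bases and the first of 3 Kdm3a windows at 27 bases. The other Kdm3a windows, not printed, hold no core motif. Such short motifs are common: 38.6% of 32851 promoter windows of this length held at least 1, as did 21 of the 43 windows of dioxygenase genes. The motif is therefore a description of these letters only.

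HIF subunits, regulators and targets were read as a list of 27 measured genes. In R172K hearts the list median was 0.06 beside -0.0033 for all genes. Of genes brighter than the median, as most of the list were, 27.8% were called in R172K hearts when tested alone. Of the 27, 6 rose and 1 fell in R172K hearts, beside 6.23% and 6.78% of all genes. The glycolytic regulator Pfkfb3 (0.60, adjusted p = 0.013), the HIF partner Arnt (0.31, adjusted p = 0.0186), the vasoconstrictor gene Edn1 (0.55, adjusted p = 0.0223) and Hif1a (0.69, adjusted p = 0.0272) had the smallest p among those that rose. The hexokinase gene Hk2, named after its values were seen, fell by 0.34 (adjusted p = 0.0316). In R140Q hearts limma called none of the 27, and 6 had an unadjusted p under 0.05. Hif1a read 9.91, 9.87, 10.11 and 10.07 in the 4 controls, 10.58, 10.61, 10.82 and 10.53 with R140Q and 10.82, 10.83, 9.98 and 11.08 with R172K. All R140Q hearts lay above all control hearts, whereas R172K replicate 3, at 9.98, lay among the controls and the other R172K hearts above them.

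In the AlkB family, which repairs alkylated nucleic acids or removes methyl marks from RNA, 2 of 8 measured genes rose and none fell in R140Q hearts, and 2 rose and 1 fell in R172K hearts. These are 25.0% and 37.5%, beside 2.20% and 13.0% of all genes. Of genes brighter than the median, tested alone, 5.69% and 27.8% were called, and all of the 8 but Alkbh2 are that bright. Alkbh3 and Alkbh6 were the genes that rose in each comparison, and both comparisons share the control arrays. Alkbh3 demethylates adenine and cytosine in single-stranded DNA and RNA. It read 9.14, 9.56, 9.35 and 9.40 in the 4 controls, 9.94, 9.81, 9.86 and 9.81 with R140Q and 10.04, 10.05, 9.79 and 10.07 with R172K. All 8 mutant hearts lay above every control heart. Alkbh3 rose by 0.63 ± 0.09 in R172K hearts, or 1.54-fold (adjusted p = 0.00207), and this was called whichever array was left out. In R140Q hearts it rose by 0.49 ± 0.09 (1.41-fold, adjusted p = 0.0199). The R140Q call ended without control 1, control 3, R140Q 1 or R140Q 3, with adjusted p from 0.0539 to 0.0639.

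Alkbh6, a member of the family with a less well defined substrate, read 8.93, 9.08, 9.20 and 9.25 in the 4 controls, 9.68, 9.39, 9.76 and 9.72 with R140Q and 9.66, 9.69, 9.44 and 9.58 with R172K. Again the mutant hearts did not overlap with the control hearts, and the mutant groups overlapped with each other. Its increase was 0.52 ± 0.10 in R140Q hearts (adjusted p = 0.0199) and 0.47 ± 0.10 in R172K hearts (adjusted p = 0.00922). The R172K call held without any single array. The R140Q call ended without control 1, control 2, R140Q 1, R140Q 3 or R140Q 4 (adjusted p from 0.0503 to 0.0734). With the log2 intensity of Myl7 as a covariate the R140Q differences were 0.37 for Alkbh3 (adjusted p = 0.286) and 0.52 for Alkbh6 (adjusted p = 0.193). In Myl7 all R140Q hearts (5.23 to 6.04) lay below all controls (6.18 to 12.49), so this covariate cannot be separated from the group. That fit called 0.0652% of all genes in R140Q hearts. The mutants did not differ detectably in Alkbh3 or Alkbh6, with intervals of the difference from -0.06 to 0.33 for Alkbh3 and from -0.26 to 0.16 for Alkbh6.

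The promoter windows of this pair, the members that rose in both mutants, are printed in the same way.
Alkbh3 (chr2:94010731-94010980, minus strand): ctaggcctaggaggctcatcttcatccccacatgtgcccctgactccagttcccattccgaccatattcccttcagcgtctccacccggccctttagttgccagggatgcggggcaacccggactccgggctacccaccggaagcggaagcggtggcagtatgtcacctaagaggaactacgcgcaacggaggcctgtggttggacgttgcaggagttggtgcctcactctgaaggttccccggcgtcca
Alkbh6 (chr7:30308503-30308752, plus strand): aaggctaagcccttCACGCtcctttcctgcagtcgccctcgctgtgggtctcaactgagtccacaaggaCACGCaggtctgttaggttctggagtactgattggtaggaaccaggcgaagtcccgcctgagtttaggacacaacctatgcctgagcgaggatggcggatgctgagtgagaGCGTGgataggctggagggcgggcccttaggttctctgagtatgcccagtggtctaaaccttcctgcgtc
The Alkbh3 window holds no HIF core and the Alkbh6 window holds 3, at 236, 181 and 70 bases before the start.

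Alkbh5 removes the N6-methyladenosine mark from messenger RNA. Its values were 10.18, 10.31, 10.25 and 10.16 in the 4 controls, 10.13, 10.06, 10.08 and 10.10 with R140Q and 9.90, 10.02, 10.04 and 9.87 with R172K. Control hearts lay above all R140Q hearts, and these above all R172K hearts. It fell by 0.27 ± 0.06 in R172K hearts (1.21-fold, adjusted p = 0.0141), with adjusted p up to 0.0487 when single arrays were left out. The R140Q difference of -0.14 (adjusted p = 0.278) was not called, nor was that between the mutants, -0.13 (adjusted p = 0.298). Fto, the other eraser of this mark, read 8.10, 8.27, 8.38 and 8.31 in the 4 controls, 8.06, 8.26, 8.13 and 8.10 with R140Q and 8.27, 8.46, 8.35 and 8.29 with R172K. Its groups overlapped with control in both mutants, while the R172K hearts lay above all R140Q hearts. The Fto differences from control were -0.13 in R140Q and 0.07 in R172K hearts (adjusted p = 0.433 and 0.594).

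Of the other AlkB genes, Alkbh7, a mitochondrial protein linked to cell death, differed by -0.28 in R172K hearts (adjusted p = 0.189), with R172K replicate 4 lowest at 7.88. Alkbh8, which modifies the wobble base of transfer RNAs, differed by -0.15 (adjusted p = 0.13), and its R172K hearts did not overlap with control. The DNA repair gene Alkbh2 and Alkbh4, which acts on actin, differed from control by at most 0.06 in size in either mutant.

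Tet1 fell in R172K hearts and was the only TET gene called. This 1 of 3 is 33.3%, beside 13.0% of all genes and 27.8% of genes brighter than the median, tested alone. TET enzymes start the removal of DNA methylation. Tet1 read 8.11, 8.23, 8.61 and 8.40 in the 4 controls, 8.49, 7.73, 8.22 and 8.01 with R140Q and 7.64, 7.53, 8.01 and 7.44 with R172K. Every R172K heart lay below the lowest control heart, and R140Q hearts overlapped with both groups. It fell by 0.68 ± 0.17 in R172K hearts, or 1.61-fold (adjusted p = 0.0185). The call ended without control 3, R172K 1 or R172K 2 (adjusted p from 0.0516 to 0.0527). Both other Tet1 probe sets were lower in R172K hearts as well, at means of 5.69 against 6.41 and 6.29 against 6.91 in control. In R140Q hearts the difference was -0.22, with an interval from -0.58 to 0.14, and the mutants differed by -0.46 (adjusted p = 0.182).

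Tet2 read 8.24, 7.90, 8.14 and 8.07 in the 4 controls, 7.95, 8.30, 7.90 and 7.90 with R140Q and 8.32, 8.31, 8.15 and 8.21 with R172K. Its differences from control, -0.07 in R140Q and 0.16 in R172K hearts (adjusted p = 0.791 and 0.349), were within the spread of the arrays. Tet3 differed by 0.13 and 0.03 (adjusted p = 0.5 and 0.885). The 3 TET genes thus did not share a direction in R172K hearts, where Tet2 and Tet3 had positive differences.

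Of 15 histone lysine demethylases, 2 rose in R172K hearts and none fell, which is 13.3%, beside 13.0% of all genes. All but Kdm4d were brighter than the median gene, and 27.8% of such genes were called in R172K hearts when tested alone. None of the 15 was called in R140Q hearts, where limma gave no unadjusted p under 0.05 either. Kdm3a removes methyl groups from lysine 9 of histone H3. It read 8.20, 8.20, 8.12 and 7.95 in the 4 controls, 8.38, 8.23, 8.28 and 8.31 with R140Q and 8.90, 8.87, 8.17 and 8.70 with R172K. The R172K hearts other than replicate 3 lay well above all other hearts, and replicate 3, at 8.17, lay among the controls. Kdm3a rose by 0.54 ± 0.13 (adjusted p = 0.0207), and by 0.71 without that array. The call ended without control 4, R172K 1 or R172K 2 (adjusted p from 0.0585 to 0.0695).

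Kdm5b, a demethylase of lysine 4 of histone H3, read 7.42, 7.24, 7.32 and 7.27 in the 4 controls, 7.46, 7.29, 7.45 and 7.45 with R140Q and 7.58, 7.58, 7.58 and 7.48 with R172K. R172K hearts lay above all control and R140Q hearts by a small margin. It rose by 0.25 ± 0.06 (1.19-fold, adjusted p = 0.0245), which was no longer called without control 2, control 4, R172K 1 or R172K 2 (adjusted p from 0.0614 to 0.077), or without control 3, R140Q 4 and R172K 3 (0.0704). Its relative Kdm5a read 8.03, 8.03, 8.09 and 8.10 in the 4 controls, 8.07, 8.24, 7.96 and 8.24 with R140Q and 8.18, 8.20, 8.24 and 8.28 with R172K. All R172K hearts lay above the highest control, but the difference of 0.16 was not called (adjusted p = 0.154). The X-linked Kdm5c differed by 0.22 (adjusted p = 0.0538). Kdm5a, Kdm5b and Kdm5c had positive differences in both mutants, of which that of Kdm5b in R172K hearts was called.

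Kdm6b removes methyl groups from lysine 27 of histone H3 and is inducible in inflammation. It read 8.46, 8.41, 8.59 and 8.53 in the 4 controls, 8.55, 8.70, 8.53 and 8.45 with R140Q and 8.30, 8.41, 8.42 and 8.15 with R172K. R172K hearts lay below all R140Q hearts and overlapped with control. Its difference was 0.06 in R140Q hearts (adjusted p = 0.781), -0.18 in R172K hearts (adjusted p = 0.169) and -0.24 between the mutants (adjusted p = 0.149).

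Among the remaining histone demethylases, Phf2, which acts on lysine 9 of histone H3, was lower in all R172K hearts than in any control, with a difference of -0.18 that was not called (adjusted p = 0.0779). Jmjd1c, a relative of Kdm3a, had its R172K hearts above all controls (0.12, adjusted p = 0.214). Phf8, Kdm2a, Kdm2b, Kdm3b, Kdm4a, Kdm4b, Kdm4c and Kdm4d had R172K differences between -0.10 and 0.07 and R140Q differences between -0.16 and -0.01. Their R140Q values included Kdm4a and Kdm4b, whose 4 hearts all lay below control by a mean of 0.07 and 0.12. Kdm4d was dim, with a mean of 4.81 over the 12 arrays.

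Of the 3 JmjC proteins that are not classed as histone demethylases here, 2 fell in R172K hearts. That is 66.7%, beside 13.0% of all genes and 27.8% of genes brighter than the median, tested alone. Jmjd8, a protein of the endoplasmic reticulum lumen, read 10.06, 10.23, 10.26 and 10.28 in the 4 controls, 9.93, 10.14, 10.04 and 10.10 with R140Q and 8.98, 9.21, 10.07 and 9.66 with R172K. The R172K hearts were spread over more than 1 log2 unit, from 8.98 in replicate 1 to 10.07 in replicate 3, which overlapped with control. Jmjd8 fell by 0.73 ± 0.18 (1.66-fold, adjusted p = 0.0209), and the call ended without control 2, control 4, R172K 1 or R172K 2 (adjusted p from 0.0523 to 0.0618). Without R172K 3 the decrease was -0.93.

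Jmjd4 hydroxylates a translation termination factor. Its log2 intensities were 7.41, 7.47, 7.37 and 7.59 in the 4 controls, 7.42, 7.60, 7.17 and 7.38 with R140Q and 7.08, 7.12, 7.15 and 7.00 with R172K. R172K hearts lay below all other hearts. Jmjd4 fell by 0.37 ± 0.09 in R172K hearts (adjusted p = 0.0156, and up to 0.0467 without single arrays), and the difference between the mutants, -0.30, was not called (adjusted p = 0.0988). Jmjd6, a lysyl hydroxylase of splicing factors, differed by 0.31 in R140Q hearts (adjusted p = 0.206) and by 0.19 in R172K hearts (adjusted p = 0.353).

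Of 3 hydroxylases of other proteins, 1 fell in R172K hearts against control and 1 differed between the mutants. Each is 33.3%, beside 13.0% and 1.48% of all genes. Of genes brighter than the median, tested alone, 27.8% and 4.50% were called. Asph hydroxylates aspartate and asparagine in extracellular protein domains, and its locus also encodes the sarcoplasmic reticulum proteins junctin and junctate. It read 9.72, 9.82, 9.74 and 9.64 in the 4 controls, 9.60, 9.65, 9.68 and 9.59 with R140Q and 9.47, 9.61, 9.40 and 9.46 with R172K. All R172K hearts lay below the lowest control, and R140Q hearts overlapped with control. Asph fell by 0.24 ± 0.06 in R172K hearts (adjusted p = 0.0249). Leaving out control 1, 2 or 3, R172K 1 or R172K 4 ended the call (adjusted p from 0.0532 to 0.0792), as did leaving out control 3, R140Q 4 and R172K 3 together (0.0862). Which of the locus's products the probe set reads was not examined.

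Ogfod1 hydroxylates a protein of the small ribosomal subunit. It read 8.79, 9.00, 9.04 and 8.93 in the 4 controls, 9.13, 9.04, 9.09 and 9.14 with R140Q and 8.61, 8.68, 8.88 and 8.77 with R172K. R140Q hearts lay at or above the highest control, R172K hearts overlapped with the lower controls, and the mutants did not overlap. R172K hearts were lower than R140Q hearts by 0.37 ± 0.07 on the log2 scale (1.29-fold, adjusted p = 0.0406). Against control neither mutant was called, with 0.16 in R140Q (adjusted p = 0.281) and -0.20 in R172K hearts (adjusted p = 0.0874). The call between the mutants ended without control 2, 3 or 4, any 1 R140Q array, or R172K 1 or 2, with adjusted p from 0.0527 to 0.136. Ogfod2 differed by -0.06 in R140Q and -0.15 in R172K hearts and was not called.

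**Figure D4:**
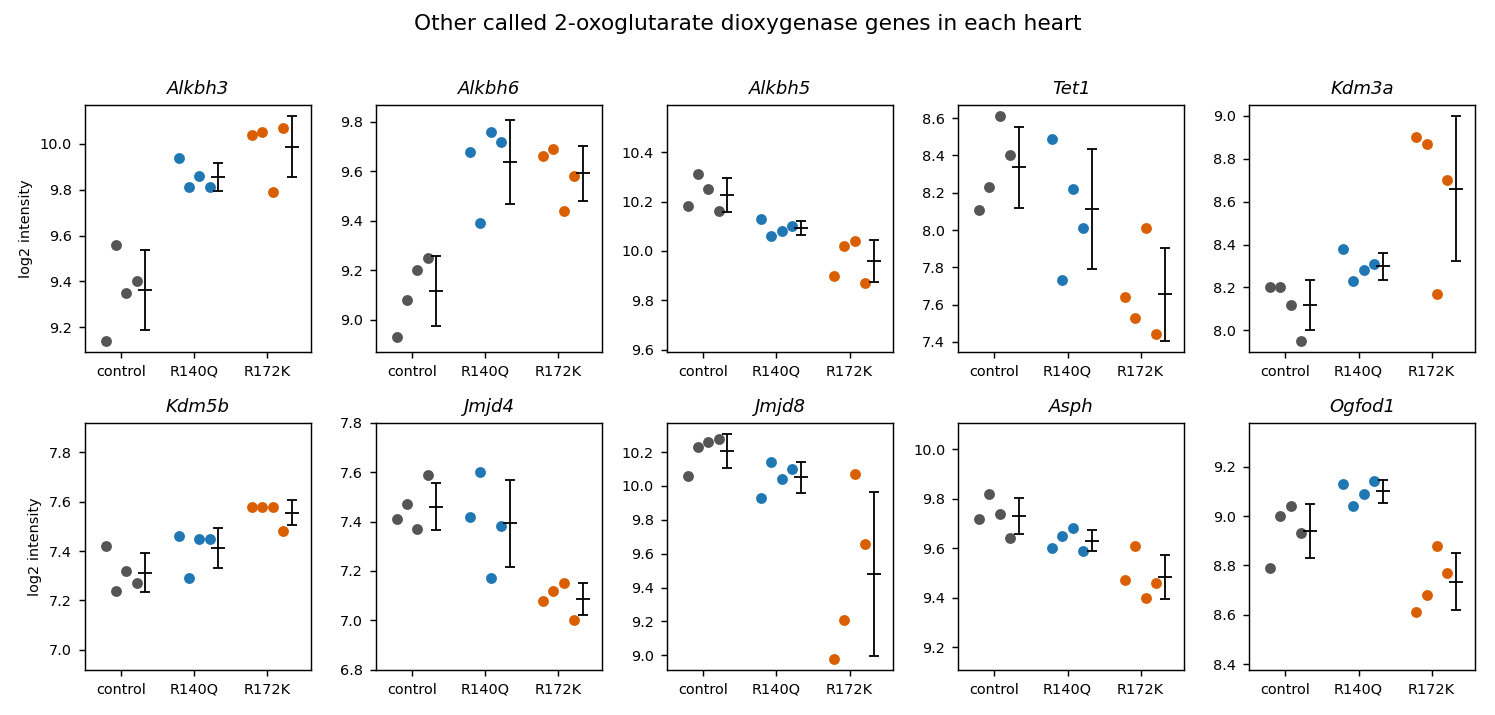
Log2 intensity in each heart of the 10 dioxygenase genes outside the HIF group that were called in a comparison of 2 groups; each point is 1 array in the order of replicates, and the bar beside each group is the mean ± SD of 4. Vertical scales differ between panels. Alkbh3 and Alkbh6 are above control in all 8 mutant hearts, and replicate 3 of the R172K hearts is the one nearest to control in Kdm3a and Jmjd8.

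Between the mutants, 2 of 38 dioxygenase genes were called, Egln1 and Ogfod1, both lower in R172K hearts, while 0.998% of all genes were lower and 0.487% higher. That is 5.26% of members, beside 1.48% of all genes, and 5.71% beside 4.50% among genes brighter than the median. The count was 5 without R172K 3, where 7.91% of all genes were called, 1 without R140Q 3 (0.226% of all genes) and 0 on leaving out control 2, 3 or 4, or R140Q 1, 2 or 4, or R172K 1 or 2. In those fits with 0, at most 0.903% of all genes were called, and limma gave between 10 and 15 members an unadjusted p under 0.05. With all arrays there were 15 members at that p, beside 16.3% of all genes. R172K hearts did not overlap with R140Q hearts in 3 members that were higher and 6 that were lower, beside 3.07% and 4.64% of all genes. Genes called in R172K and not in R140Q hearts numbered 9, and of these the difference between the mutants was called for Egln1 alone.

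In the enzymes of small-molecule metabolism no member was called against control in either mutant by limma, with 1 of 2 at an unadjusted p under 0.05 in each. Phyh starts the breakdown of phytanic acid, a branched fatty acid, in peroxisomes. It read 11.81, 11.94, 11.83 and 11.82 in the 4 controls, 11.58, 11.77, 11.22 and 11.46 with R140Q and 11.46, 11.58, 11.65 and 11.29 with R172K. All mutant hearts lay below all control hearts, in both groups. The difference was -0.34 ± 0.11 in R140Q (adjusted p = 0.123) and -0.35 ± 0.11 in R172K hearts (adjusted p = 0.0507). The R172K difference passed the threshold without R140Q 2 (adjusted p = 0.0317), R140Q 3 (0.0283) or R172K 3 (0.0258). With both mutants averaged against control, Phyh fell by 0.35 ± 0.09 (adjusted p = 0.0382), a call that was lost on leaving out any 1 control array, or R140Q 1, 3 or 4 or R172K 1 (0.051 to 0.12).

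Other genes of phytanic acid breakdown were read as a list of 9. In R172K hearts 3 fell and none rose, namely the sterol carrier gene Scp2 (-0.39, adjusted p = 0.00905), the import receptor gene Pex7 (-0.35, adjusted p = 0.0135) and the racemase gene Amacr (-0.49, adjusted p = 0.0148). The list median was -0.14, and 6.78% of all genes fell in R172K hearts. None of the 9 was called in R140Q hearts by limma, with 4 at an unadjusted p under 0.05.

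Bbox1 makes carnitine from its precursor, chiefly in liver and kidney. In these hearts it read 4.17, 4.08, 4.09 and 4.02 in the 4 controls, 4.11, 4.08, 4.27 and 4.15 with R140Q and 4.01, 4.12, 3.99 and 3.97 with R172K. Its intensity lay below that of the median gene, as did those of Kdm4d and Alkbh2, and the groups overlapped. Intervals of the difference ran from -0.07 to 0.20 in R140Q and from -0.20 to 0.07 in R172K hearts. Of 11 measured genes of carnitine synthesis and shuttling, the carnitine transporter family gene Slc22a4 (0.74) and the carnitine palmitoyltransferase Cpt1a (0.47) rose in R172K hearts, and Cpt2 (-0.94) and the acyl-CoA dehydrogenase Acadm (-0.39) fell. Of all genes 6.23% rose and 6.78% fell in R172K hearts. Shmt1, a folate enzyme, rose in R140Q hearts (0.39, adjusted p = 0.0435), where 1.08% of all genes rose.

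Averaged over both mutants, 5 of 38 dioxygenase genes differed from control, 2 higher and 3 lower, or 13.2% beside 9.20% of all genes (4.33% higher and 4.87% lower). At an unadjusted p under 0.05 there were 17 members, beside 24.3% of all genes. Alkbh3 (0.56 ± 0.08, adjusted p = 0.00211) and Alkbh6 (0.50 ± 0.08, adjusted p = 0.00548) rose whichever array was left out. Egln1 (-0.41), Alkbh5 (-0.20) and Phyh fell. Egln1 lost its call without any 1 of the controls and without R172K 1 (adjusted p 0.0513 to 0.0854), and Alkbh5 lost its call without control 1, 2 or 3, without R140Q 2, 3 or 4 and without R172K 1 (0.0508 to 0.119). The count was 2 without control 1, 2 or 3 or R172K 1, 3 without control 4 or R140Q 3 or 4, and 10 without R172K 3. All genes called in these fits were 3.43% to 6.16%, 5.58% to 7.75% and 16.7%, so that the counts of 2 and 3 lay near the background in some of them.

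Dioxygenases outside the list of 40 were read as a list of 24 measured genes, mostly collagen hydroxylases and further JmjC proteins. In R172K hearts 1 rose and 4 fell, beside 6.23% and 6.78% of all genes, with a list median of 0.09. The prolyl 3-hydroxylase P3h2, which modifies basement membrane collagen, rose by 1.15 ± 0.30 (adjusted p = 0.0236). The collagen prolyl hydroxylase subunit P4ha2 fell by 0.54 (adjusted p = 0.0272), the Y-linked Uty by 0.32 (adjusted p = 0.00911) and the nucleolar hydroxylase Riox2 by 0.42 (adjusted p = 0.0257). In R140Q hearts the membrane-bound prolyl hydroxylase P4htm fell by 0.50 (adjusted p = 0.0252). P4htm, named here after its values were seen, also fell in R172K hearts, by 0.35 (adjusted p = 0.034). P4ha2 was also lower in R172K than in R140Q hearts, by 0.68 (adjusted p = 0.045), as was Uty, by 0.31 (adjusted p = 0.0456).

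Enzymes that make or use 2-oxoglutarate or 2-hydroxyglutarate, 22 measured genes, included 2 decreases in R140Q hearts and 2 increases and 5 decreases in R172K hearts. Of all genes 1.12% fell in R140Q hearts, and 6.23% rose and 6.78% fell in R172K hearts. The transaminase Gpt2, which forms 2-oxoglutarate and alanine, fell by 1.10 in R140Q and by 1.54 in R172K hearts (adjusted p = 0.0177 and 0.00133). Bcat2, a transaminase of branched-chain amino acids, fell in both (-0.62 and -0.83), and the dicarboxylate carrier gene Slc25a10 rose in R172K hearts (0.53, adjusted p = 0.0112). D2hgdh, which turns D-2-hydroxyglutarate back into 2-oxoglutarate, fell by 0.78 in R172K hearts (adjusted p = 0.0102). Psat1 of serine synthesis rose by 0.46, and Idh3g of the citric acid cycle and the transaminase Oat, all 3 named after their values were seen, fell by 0.27 and 0.29. The D2hgdh difference in R140Q hearts, from 8.32 in control to 7.91, was not called. Between the mutants, Psat1 was higher in R172K hearts (0.66, adjusted p = 0.0287).

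The position of R172K replicate 3 touches many of these values. In 9 of the 11 members called in R172K hearts it was the array of its group nearest to the control mean. It also had the lowest fibroblast and matrix mean of the group, 8.91. Timp1, a gene of that list with a large R172K difference, read 5.83, 6.17, 6.36 and 6.50 in the 4 controls, 7.18, 7.62, 8.23 and 6.79 with R140Q and 9.86, 10.18, 7.59 and 11.53 with R172K. Without this array 14 members were called in R172K hearts, all 11 among them, beside 20.9% of all genes. R172K replicate 4 was the array of its group farthest from the control mean in 5 of the 11. Without replicate 4, 10 members were called in R172K hearts, beside 10% of all genes. What part the mix of cells had in these differences was not tested.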

How the data were processed

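Each array gave 1 RMA intensity per probe set, deposited by the authors. The intensity is linear, since its highest value is 17591. RMA, which subtracts background and equalises arrays, is named in the submitters' processing notes without its settings. The number of arrays limits the precision. The 34760 probe sets divide into 21640 with 1 symbol in GEO's platform annotation, 1321 with several and 11799 unlisted. Those with 1 symbol gave 19937 genes, each by its probe set of highest mean. Log2 values were fitted with limma 3.58.1 in R 4.3.3 (lmFit, eBayes, two-sided, 9 residual and 3.54 prior degrees of freedom) with the 3 groups together, and the fit was tested on simulated data. Because arrays were equalised, a shift of most genes together would not show.

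Members and lists were chosen with earlier results of these data known. The naming rule took every called member, a fixed set of others and, of each other list, up to 4 called genes with the smallest p per comparison. Promoters came from RefSeq, where 33 of the 40 members had an entry. Same-numbered arrays did not deviate together (correlation over 0.1 in 2 of 12 pairs), so replicate numbers were not used as pairs. The closest arrays, control 1 and control 2, still differed with an SD of 0.166 in log2. Alternatives covered arrays, probe sets, filters, normalization, variance models, weights, thresholds and covariates.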

Additional observations from a re-analysis of the deposited data

Results flagged for a closer look

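Of 114 sets of 4 arrays, 1 gene in 1 group each, 9 held an array far from the other 3 by Dixon's criterion for 4 values. Chance alone gives about 1 in 20. R140Q replicate 2 stood apart in Tet2, at 8.30 against 7.90 to 7.95, in Kdm5b, at 7.29 against 7.45 to 7.46, and in Jmjd6, at 8.01 against 8.21 to 8.25. R172K replicate 3 stood apart on the control side in Egln1, at 10.80 against 10.33 to 10.40, and in Alkbh3, at 9.79 against 10.04 to 10.07. In Kdm5b R172K replicate 4 read 7.48 while the other 3 read 7.58. Phf2 read 8.87 in R172K replicate 2 against 8.77 to 8.78. Alkbh4 read 6.87 in control replicate 4 against 6.82 to 6.83, and Phyh 11.94 in control replicate 2 against 11.81 to 11.83.

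The difference between the mutants was called in a direct limma test for Egln1 (-0.62, R172K minus R140Q) and Ogfod1 (-0.37). Neither call was stable, being lost in 8 and 9 of the 12 fits without 1 array. With only the arrays of these 2 groups fitted, limma gave an adjusted p of 0.117 and 0.106.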

How the results depend on the processing

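Counts of members called are given as main value first. R140Q against control (2) gave 0 with the replicate number as a block (6 at an unadjusted limma p under 0.05), 0 at an adjusted p under 0.01, 0 with Myl7 as a covariate (7 unadjusted), 4 with array weights, 1 without control 3, R140Q 4 and R172K 3, and 0 to 3 when single arrays were left out. R172K against control (11) gave 11 with the block, 3 at an adjusted p under 0.01 and 5 to 14 without single arrays, and stayed between 8 and 15 otherwise. The lowest of these, 8 with only the arrays of the 2 groups, held 7 of the original 11. R172K against R140Q (2) gave 0 with the block (13 unadjusted), with only the arrays of the 2 groups (12), with every probe set tested (14), at an adjusted p under 0.01 (15) and with Myl7 as a covariate (8), 5 with array weights, 4 without the 3 arrays named above, and 0 to 5 without single arrays. The mean of both mutants (5) gave 2 with the block, at an adjusted p under 0.01 and with Myl7, 3 with every probe set, 10 without genes dimmer than the median, 14 with array weights, 13 at an adjusted p under 0.10 and 2 to 10 without single arrays. The cause of these shifts was not tested, except that a stricter or looser threshold acts by construction. Leaving out 1 array moved counts both ways, as in R172K against control, with 5 without R172K 1 and 14 without R172K 3. All genes called moved from 439 to 196 with the block, 13 with Myl7 and 1651 with array weights in R140Q, and from 296 to 11, 5 and 1774 in R172K against R140Q. Centring each array on its median turned the R140Q split from 216 higher of 439 to 288 of 473, and that between the mutants from 97 of 296 to 78 of 408. The difference of Egln3 in R172K hearts (0.12) reversed to -0.035 with array weights and to -0.0146 without those 3 arrays. That of Phyh between the mutants (-0.01) reversed to 0.0106 with weights, -0.1072 to 0.0762 without single arrays (above 0 without R140Q 1 or 2 and without R172K 1 or 4), and was 0.00 with Myl7. Of 1188 values for single members under alternatives, 1051 kept direction and side of the threshold, 112 lost and 17 gained the threshold.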

Other observations

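Enzymes that write the marks which the dioxygenases erase were also read. Of 29 DNA and histone methyltransferase genes, 1 rose and 2 fell in R172K hearts, beside 6.23% and 6.78% of all genes. Their median difference there was 0.04. The Polycomb methyltransferase Ezh2 rose by 0.37 (adjusted p = 0.0146), while Prdm16 (-0.43, adjusted p = 0.00519) and the lysine 4 methyltransferase Kmt2c (-0.34, adjusted p = 0.0117) fell. In R140Q hearts limma called none, with 2 at an unadjusted p under 0.05. The flavin-dependent demethylases, which need no 2-oxoglutarate, moved apart in R172K hearts, where Kdm1a rose by 0.33 (adjusted p = 0.0303) and Kdm1b fell by 0.28 (adjusted p = 0.0172). Their deacetylase partner Hdac1 rose by 0.80 (adjusted p = 0.00821). In this list of 7 genes 2 rose and 1 fell, beside 6.23% and 6.78% of all genes.

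Of 13 genes that write or read N6-methyladenosine, the methyltransferase Mettl16 fell in R172K hearts (-0.31, adjusted p = 0.0161) and the other 12 were not called. Of all genes 6.78% fell in R172K hearts. In R140Q hearts limma called none of the 13 genes, with 1 at an unadjusted p under 0.05.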
